A study of Mus musculus with 16 samples.

Results

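The proteases that cut the extracellular matrix, and the proteins that hold them in check, were followed across the mouse colon wall in 46 genes. They are the protein-coding genes named Mmp (matrix metalloproteinases, 23 genes), Adamts (19 genes) and Timp (tissue inhibitors of metalloproteinases, 4 genes), out of 56748 genes in the count table, 21970 of them protein-coding. Members were selected by gene name, under a rule set with earlier results of these data known. In edgeR's quasi-likelihood test no member passed between genotypes or between segments, and the values therefore describe which proteases the tissue expressed, how far the libraries spread, and which members lay nearest to a difference.

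RNA came from LMMP, a preparation of longitudinal muscle and the myenteric plexus that adheres to it, in 4 groups of 4 libraries: WT proximal, HSCR proximal, WT distal and HSCR distal colon. HSCR mice were Ednrb-/- (homozygous for the Ednrb tm1Ywa allele, which disrupts the endothelin B receptor gene and leaves the distal colon without ganglia) and WT mice were Ednrb+/+ littermates, all on a hybrid C57BL6/J-129Sv background, male and female, 2 to 4 weeks old. The HSCR proximal colon was recognised at dissection by its distention, and the matching stretch was taken from WT mice. Titles name the distal colon for 8 libraries whose tissue entries say proximal colon, and they were taken as distal. Nothing in the labels ties a library to a separate mouse, so p-values measure the spread between these libraries.

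Matrix metalloproteinases are zinc-dependent enzymes that are made as inactive precursors and cut collagens, gelatin, laminin and other matrix proteins. ADAMTS enzymes are secreted relatives that carry thrombospondin repeats and act mainly on proteoglycans such as aggrecan and versican, or trim procollagens. TIMPs bind the active site of matrix metalloproteinases and of some ADAMTS enzymes. In intestinal muscle the balance of enzymes and inhibitors is part of how matrix is turned over.

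Total counts ran from 21384372 to 45831881 per library, with 4.32% to 49.8% of them on mitochondrial genes, and the members took 0.0557% to 0.313% of the counts outside those genes. Values of single libraries are CPM, counts scaled to library size with TMM factors over all 16 libraries, and 3 counts, the floor used for a group at 0, equal at most 0.215 CPM. Ednrb held 64.5, 33.8, 67.1 and 53.01 CPM in WT proximal libraries 1 to 4, 7.84, 11.9, 37.4 and 35.3 in HSCR proximal, 11.8, 15.7, 29.5 and 42.98 in WT distal and 94.7, 5.43, 6.098 and 9.48 in HSCR distal, so that the library labelled HSCR distal 1 held more than any WT library. These HSCR libraries, 4 in all, stood apart: proximal 1, proximal 2, distal 1 and distal 4. The library labelled HSCR proximal 1 held 125 CPM of Hoxd13, a gene of the distal gut, where WT proximal libraries held 0.861 to 23.9 and WT distal libraries 117 to 215, and the libraries labelled HSCR distal 1 and 4 held 0.615 and 13.97 CPM. Other segment genes were mixed. Hoxd12 held 38.1 CPM in HSCR proximal 1, and 1.73 and 0.731 CPM in HSCR distal 1 and 4. WT proximal libraries held 0.143 to 2.71 CPM of Hoxd12 and WT distal libraries 10.6 to 19.96. Hoxb13 held 0 and 0.0457 CPM in HSCR distal 1 and 4, and 1.27 and 34.98 CPM in HSCR proximal 1 and 2. WT proximal libraries held 0 to 1.17 CPM of Hoxb13 and WT distal libraries 1.35 to 82.6. Hoxa13 in HSCR distal 4, at 40.8 CPM, lay above WT distal libraries (27.6 to 34.9). The summed level of Hoxa13, Hoxd11, Hoxd12 and Hoxd13 was 209 CPM in HSCR proximal 1, 39.1 in HSCR distal 1 and 67.6 in HSCR distal 4, against 23.3 to 53.6 in WT proximal and 177 to 281 in WT distal libraries. The labels give all libraries 1 batch, but library names have 1 form in replicates 1 and 2 and begin with LC or CM in replicates 3 and 4: CM in WT proximal 3 and 4 and HSCR proximal 4, and LC in the others. Differences within replicates 3 and 4 therefore stay within LC names only in the distal genotype comparison, and between WT segments CM or LC names and segment cannot be told apart there. HSCR proximal 2 held 4208 CPM of 6 smooth muscle markers (the others at least 22915) and 13654 CPM of 10 epithelial markers (the others at most 5090). The epithelial list summed to 48.7 to 1787 CPM in WT proximal, 187 to 13654 in HSCR proximal, 132 to 2323 in WT distal and 107 to 5090 in HSCR distal, and the neuronal list to 525 to 3185, 76.2 to 2814, 82.7 to 2136 and 18.6 to 1189 CPM. Of the 10 neuronal markers, 9 had a count in each HSCR distal library, and Chat was at 0 in all of them. The neuronal sum of 1189 CPM was that of HSCR distal 1, against 18.6 to 72.7 CPM in the other HSCR distal libraries. No epithelial or smooth muscle marker was at 0 throughout a group. In such bulk RNA, fewer cells of a type and less RNA per cell cannot be told apart.

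The inhibitor Timp2 was by far the most abundant transcript of the 46. Per kb of gene model, its mean level over all 16 libraries was 135 CPM per kb, against 42.3 for Mmp14, 25.9 for Mmp2, 22.7 for Mmp17, 21.4 for Timp3, 14.5 for Mmp23, 11.9 for Adamts1, 11.6 for Mmp15, 10.7 for Adamts8 and 8.81 for Timp1. These 10 genes made up 87.2% of the summed level of all members, and the first 3 made up 58.1%. By family, TIMPs held 47.4% of the summed level per kb, matrix metalloproteinases 37.6% and ADAMTS 14.95%, and Timp2 alone was 81.5% of the TIMP level. Counts were found for 28 members in every library, while Mmp1a and Mmp1b, the mouse genes for interstitial collagenase, had no count in any library.

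**Figure D1:**
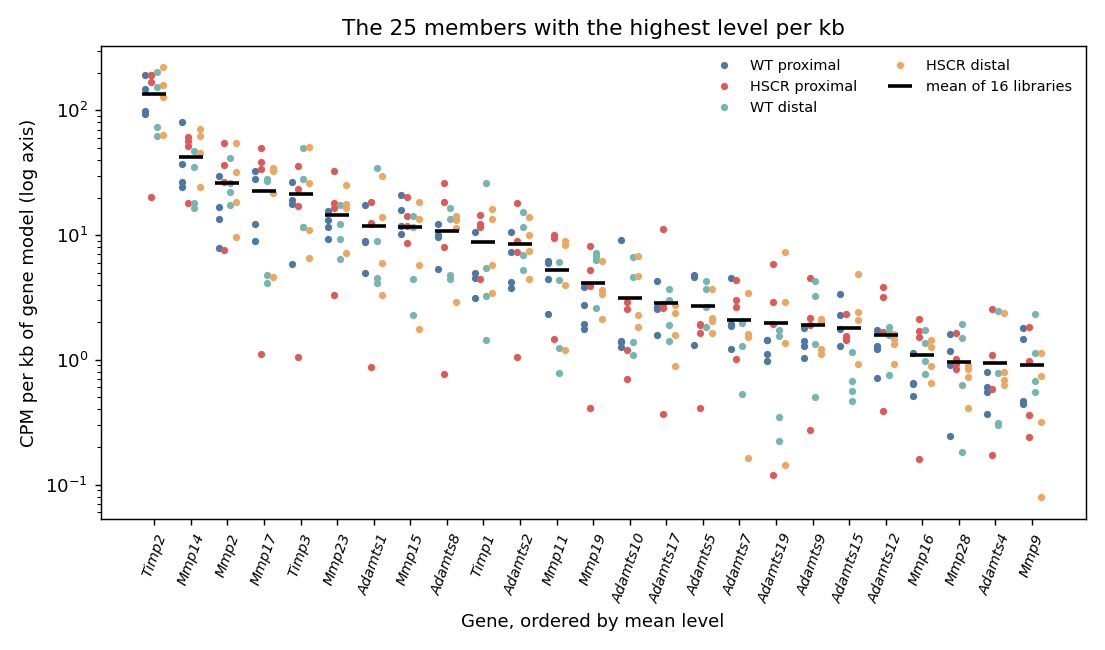
Level in CPM per kb of gene model (log axis) of the 25 members with the highest mean, for every library with a count, coloured by group, with a dash at the mean of 16 libraries. Timp2 at 135 CPM per kb lies above Mmp14 at 42.3 and Mmp2 at 25.9.

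**Figure D2:**
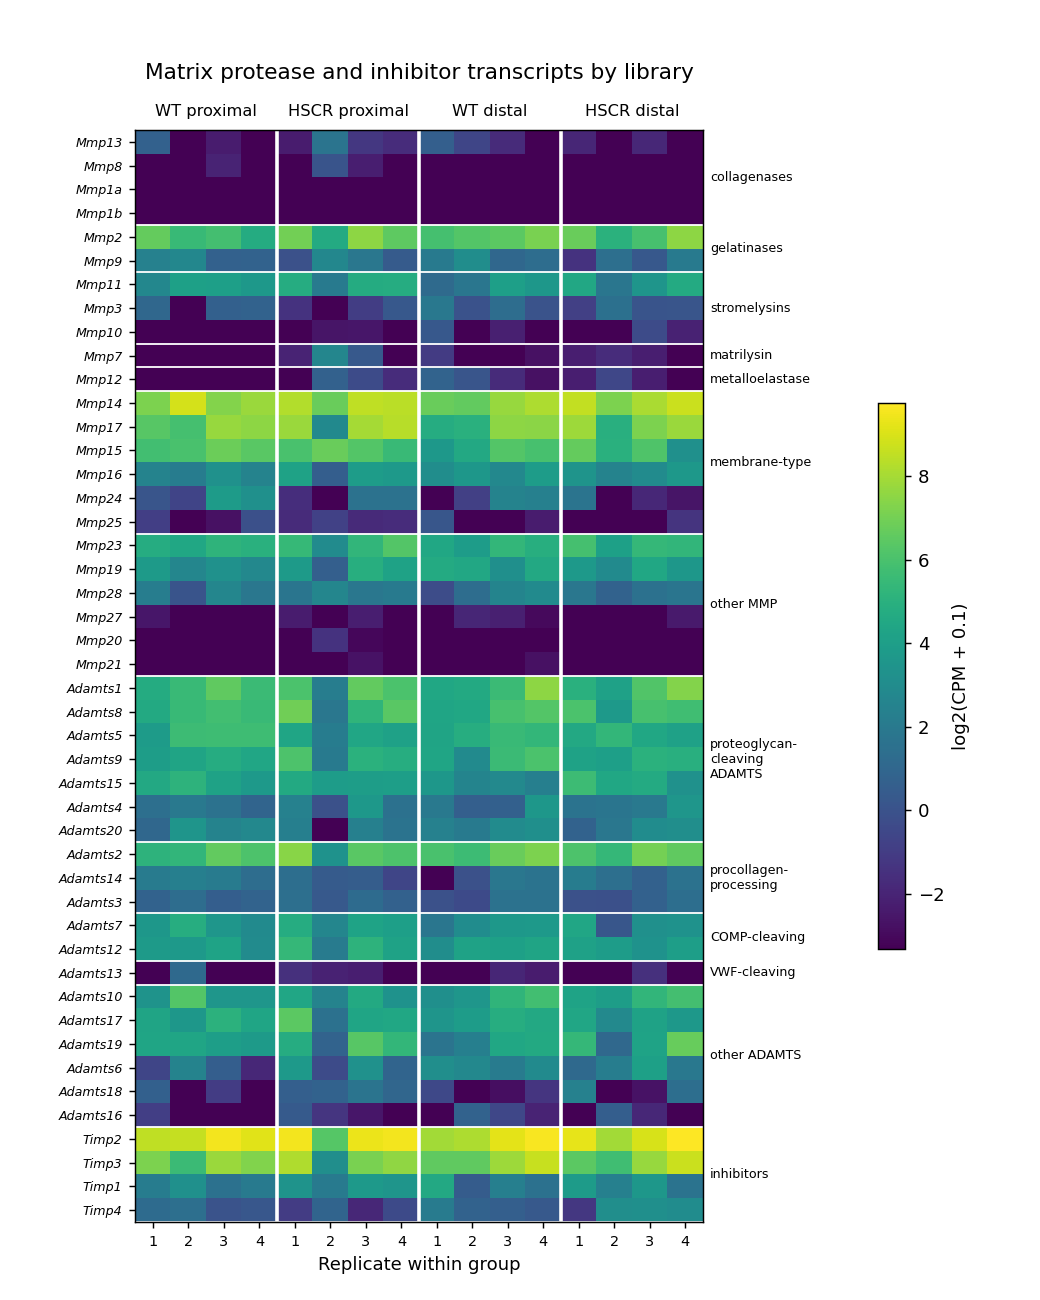
Level of all 46 members as log2(CPM + 0.1) in 16 libraries, with genes grouped by role and libraries by group and replicate. Timp2, Timp3, Mmp14, Mmp17 and Mmp2 are the bright rows, the collagenases and most genes of the chromosome 9 cluster are dark, and HSCR proximal 2 is a darker column in many rows.

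Levels differed widely between libraries of the same group. HSCR proximal 2 was the lowest of 16 libraries for 19 of the 37 members that passed the expression filter over all libraries. Its summed level was 63.9 CPM per kb for the matrix metalloproteinases, 8.35 for the ADAMTS genes and 25.8 for the TIMPs, where the means of all libraries were 132 ± 50.8, 52.3 ± 25.1 and 166 ± 71.8 CPM per kb (SD, n = 16). Group means of the matrix metalloproteinase sum were 119 ± 15.99 in WT proximal, 159 ± 65.4 in HSCR proximal, 106 ± 46.7 in WT distal and 143 ± 62.9 CPM per kb in HSCR distal (SD, n = 4). The ratio of summed TIMP to summed protease level was 0.942 ± 0.245, 0.725 ± 0.259, 0.998 ± 0.0758 and 0.899 ± 0.101 in the same order. It compares transcript levels and does not measure inhibition. Its lowest value, 0.357, was again in HSCR proximal 2. The ratio in the other HSCR proximal libraries lay between 0.731 and 0.908, inside the WT proximal range of 0.612 to 1.16.

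**Figure D3:**
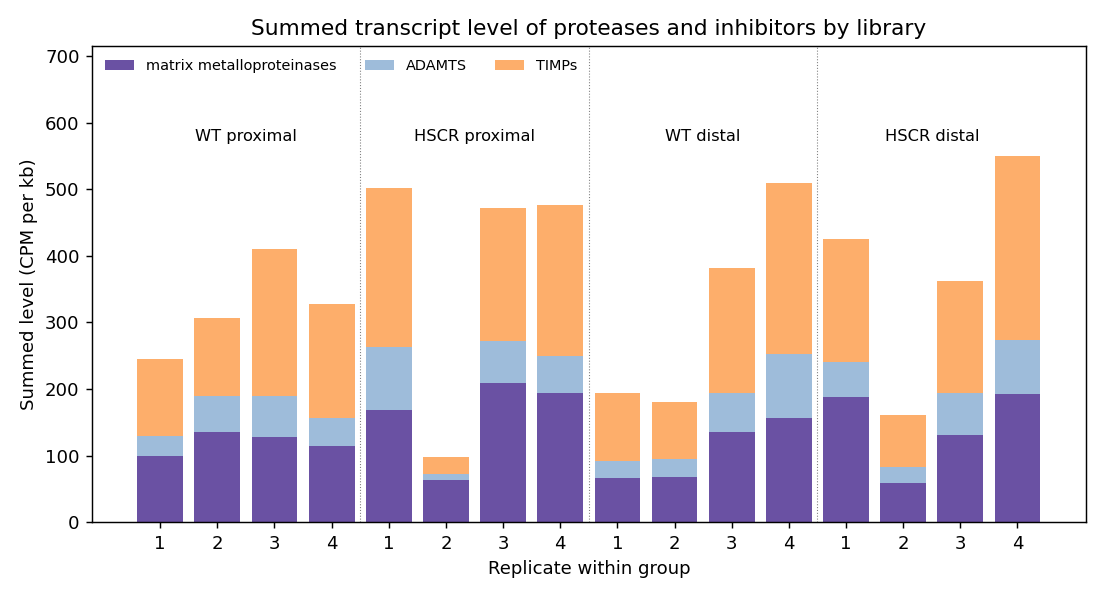
Summed level in CPM per kb of the matrix metalloproteinases, ADAMTS genes and TIMPs in each library, stacked, by group and replicate. The shortest bar is HSCR proximal 2, with 63.9, 8.35 and 25.8 CPM per kb, and bars within every group differ widely.

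Side by side on chromosome 9 lie 10 Mmp genes, which together held few counts. The stretch runs from 7272514 to 7699586 (mm39, 427073 bases), and Mmp13, Mmp12, Mmp1b, Mmp3, Mmp1a, Mmp10, Mmp8, Mmp27, Mmp20 and Mmp7 are its only protein-coding genes. All 10 together held 1530 counts over the 16 libraries, against 370022 for the 13 other Mmp genes. Only Mmp3, Mmp12 and Mmp13 passed the filter over 16 libraries, against 12 of the 13 others. Clusters of another kind were the neighbours Adamts1 and Adamts5 on chromosome 16, 53059 bases apart, and Adamts15 and Adamts8 on chromosome 9, on opposite strands and 20109 bases apart, with no protein-coding gene between them.

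The promoters of the clustered genes shared letters that were rare or absent before the other members. RefSeq promoters (GRCm38.p6) were at hand for 32 of the 46 members, and the 250 bases before each start were searched on both strands for TGANTCA, the AP-1 motif, which reads the same on both strands, and for TATAAA, the TATA box. TGANTCA was found before 8 of the 10 clustered genes (Mmp1a, Mmp1b, Mmp3, Mmp7, Mmp10, Mmp12, Mmp13 and Mmp20) and before none of the 22 other members with a promoter, where 6.75% of all 32851 promoters held it. A gene with more than 1 RefSeq promoter counted if any of them matched: the Mmp12 match lies before a start 2993 bases inside the gene, with none at the gene model start, and a second Mmp7 promoter had none. TATAAA was found before 7 of the 10 and 2 of the 22, and in 12.4% of all promoters. These matches describe letters, not bound sites. The 120 bases before the start are printed 5′ to 3′ for Mmp7, whose counts are given further on, for the clustered stromelysins Mmp3 and Mmp10 and collagenase Mmp13, and for Mmp8, whose window held neither motif. Capitals mark TGANTCA and TATAAA. The 250 bases before each of these starts have 1 match in GRCm39, on the plus strand. It places the printed windows at chr9:7691971-7692090 (Mmp7), chr9:7445702-7445821 (Mmp3), chr9:7502223-7502342 (Mmp10), chr9:7272394-7272513 (Mmp13) and chr9:7558310-7558429 (Mmp8).
Mmp7: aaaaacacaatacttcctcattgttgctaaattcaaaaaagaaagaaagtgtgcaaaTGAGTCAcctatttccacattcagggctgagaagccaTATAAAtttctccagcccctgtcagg
Mmp3: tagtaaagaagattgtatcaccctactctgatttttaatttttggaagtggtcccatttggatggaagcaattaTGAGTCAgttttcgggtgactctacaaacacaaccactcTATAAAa
Mmp10: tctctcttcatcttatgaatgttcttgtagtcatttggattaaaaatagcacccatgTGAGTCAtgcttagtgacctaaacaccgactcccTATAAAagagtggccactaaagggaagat
Mmp13: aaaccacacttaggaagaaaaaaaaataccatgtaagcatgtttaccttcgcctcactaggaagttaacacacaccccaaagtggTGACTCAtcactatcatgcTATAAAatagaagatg
Mmp8: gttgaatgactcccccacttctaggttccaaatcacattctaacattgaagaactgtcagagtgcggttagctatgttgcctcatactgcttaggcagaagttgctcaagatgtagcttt
In Mmp7, Mmp3, Mmp10 and Mmp13 the AP-1 letters begin 63, 46, 63 and 35 bases before the RefSeq start, and the nearest TATA letters 26, 7, 29 and 16 bases before it.

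A call needed a log2 fold change beyond 1 with an adjusted p under 0.05 in edgeR's quasi-likelihood test, fitted over all genes that passed the filter. Between HSCR and WT proximal colon 33 members were tested, and 0 were called (background 0% of 16664 genes). Fitted values were higher in HSCR for 23 and lower for 10, with a median log2 fold change of 0.20 against 0.04 over all genes. At an unadjusted p under 0.05 there were 2 members, both lower in HSCR (Adamts5 and Adamts14), where the background was 6.62% of genes, and the smallest adjusted p was 0.747 (edgeR). No tested member separated the groups completely, against 4.78% of genes. DESeq2 called 1 member, Mmp7, with a background of 0.821% of 29117 genes. edgeR's likelihood ratio test and limma-voom called 0 members. RUVr with 4 factors called 6 (Adamts5, Adamts6, Adamts14, Adamts18, Adamts20 and Mmp24), where it called 15.9% of the 16664 genes. Mmp7 did not pass the filter, so RUVr could not call it here. The study's methods also name RUVr, but with a lower fold limit, so the calls given here are not those of the study.

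In the distal colon 33 members were tested between HSCR and WT, 18 higher and 15 lower (53.9% of all genes higher). Their median was 0.06 against 0.04 over all genes. None was called (background 0% of 17059 genes), with a smallest adjusted p of 0.9998 in edgeR. Adamts15 alone had an unadjusted p under 0.05, where 2.64% of genes did, and 0 members separated the groups, against 1.83% of genes. DESeq2, limma-voom and the likelihood ratio test called 0, and RUVr called 3 (Adamts14, Adamts15 and Adamts19), with a background of 6.57%.

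Between the segments of WT colon 33 members were tested and 0 were called (background 0.0181%, 3 of 16566 genes). In the distal colon 19 were higher and 14 lower (51.7% of all genes higher), with a median of 0.03, equal to that of all genes. Adamts15 and Mmp19 had an unadjusted p under 0.05 (background 5.23%), the smallest adjusted p was 0.906 in edgeR, and Adamts15 was the 1 tested member whose groups did not overlap (background 4.26%). Between the segments of HSCR colon 0 of 32 tested members were called (background 0% of 17086 genes). In the distal colon 13 were higher and 19 lower (47.1% of all genes higher), with a median of -0.08 against -0.04. Timp4 alone passed an unadjusted p of 0.05 (background 1.49%), and 0 members separated the groups (background 1.27%). The genotype difference itself was compared between segments in a fit of all 16 libraries, in which 0 of 37 members were called (background 0% of 18619 genes) and 3 had an unadjusted p under 0.05 (Adamts15, Mmp12 and Timp4, background 1.44%). In these 3 comparisons DESeq2, limma-voom and the likelihood ratio test called 0 members, while RUVr called 6 between WT segments (background 11.4%), 1 between HSCR segments (3.11%) and 2 for the difference between segments (1.74%). The comparisons share groups of libraries, and their counts are therefore not independent of each other. The median SE of a member's log2 fold change was 0.54 to 0.70 in the comparisons of 8 libraries, so that a doubling of a typical member lay within 2 SE.

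**Figure D4:**
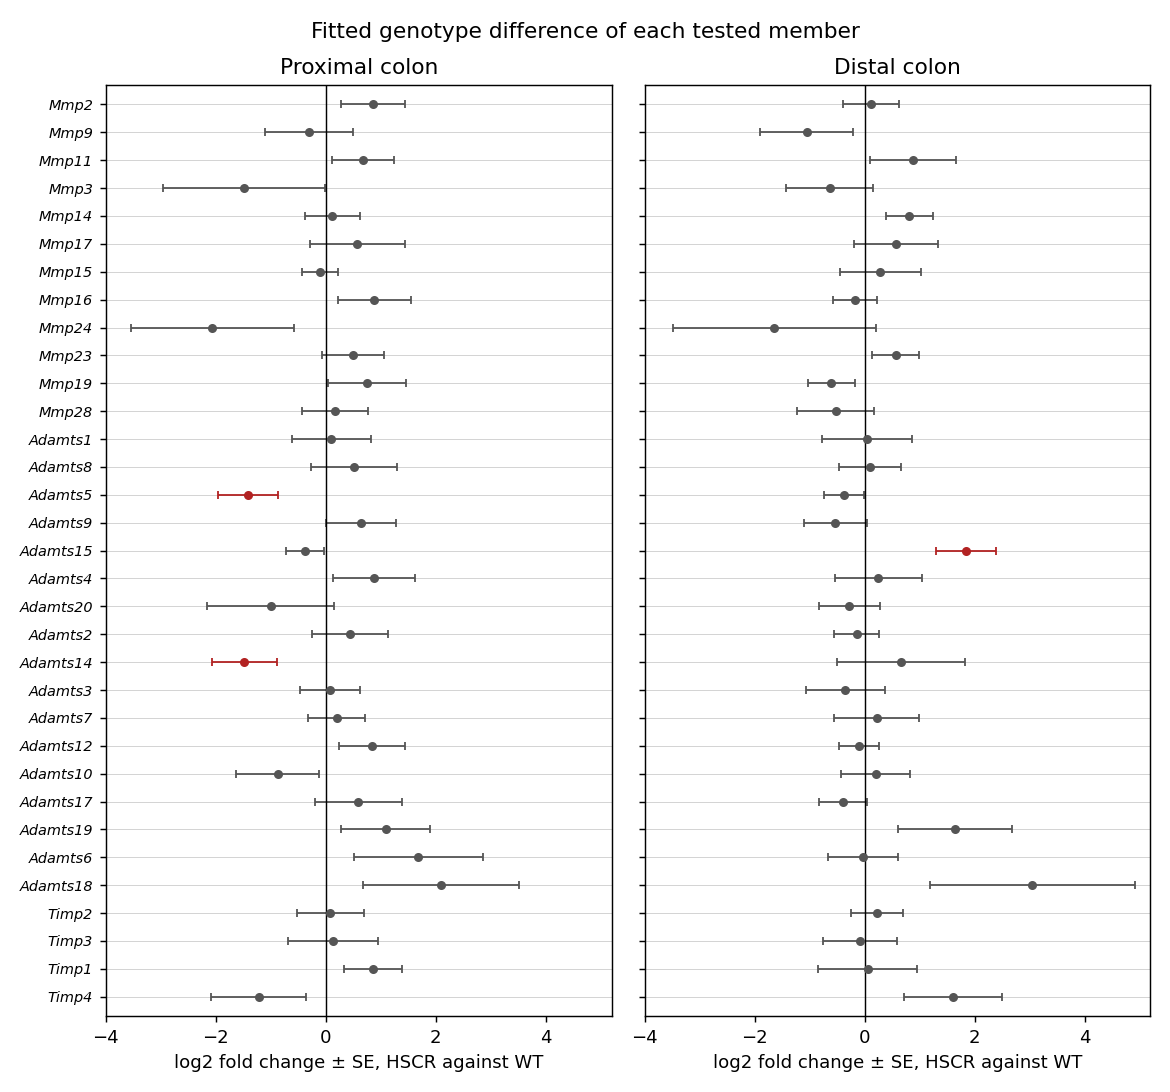
Fitted log2 fold change ± SE of each tested member, HSCR against WT, with a panel for each segment (4 libraries against 4), with members ordered by role. Red marks an unadjusted p under 0.05, reached by Adamts5 (-1.41) and Adamts14 (-1.48) in the first panel and by Adamts15 (1.84) in the second.

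Adamts15, a protease that cleaves versican and aggrecan, lay nearest to a difference in 3 of the 5 comparisons (ENSMUSG00000033453, mm39 chr9:30810451-30833748, minus strand). Adamts15 held 23.8, 35.1, 18.3 and 13.3 CPM in WT proximal libraries 1 to 4, 24.1, 14.9, 15.5 and 15.99 in HSCR proximal, 12.04, 5.78, 6.96 and 4.87 in WT distal and 50.2, 21.7, 25.1 and 9.54 in HSCR distal. All 4 WT distal libraries lay below all 4 WT proximal libraries, with 12.04 against 13.3 CPM at the border. Means of Adamts15 were 22.6 ± 9.39, 17.6 ± 4.36, 7.41 ± 3.203 and 26.6 ± 17.1 CPM in the same order (SD, n = 4 libraries). The fitted log2 fold change from proximal to distal WT colon was -1.58 (SE 0.44, adjusted p = 0.906 in edgeR). The difference of mean log2 CPM was -1.79 within replicates 1 and 2 and -1.42 within replicates 3 and 4. In replicates 3 and 4 the segments also differ in library names. Here and below, values within replicates are such differences of mean log2 CPM and not fitted values. In the distal colon the difference of HSCR from WT was 1.84 (SE 0.55, adjusted p = 0.9998), with 1.98 within replicates 1 and 2 and 1.41 within replicates 3 and 4, and 3 of 4 HSCR libraries lay above every WT library. In the proximal colon it was -0.38 ± 0.35 (SE), and the difference between the segments was 2.21 (SE 0.66, adjusted p = 0.99997). The highest distal value, 50.2 CPM, came from the library labelled HSCR distal 1. Without HSCR proximal 1 and HSCR distal 1 the distal difference was 1.30 and the difference between segments 1.82, and without all 4 HSCR libraries that stood apart they were 1.61 and 2.12, with adjusted p of 0.832 or more (edgeR). RUVr called Adamts15 in the distal, the WT segment and the between-segment comparisons. The part of segment in the HSCR libraries was not tested.

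**Figure D5:**
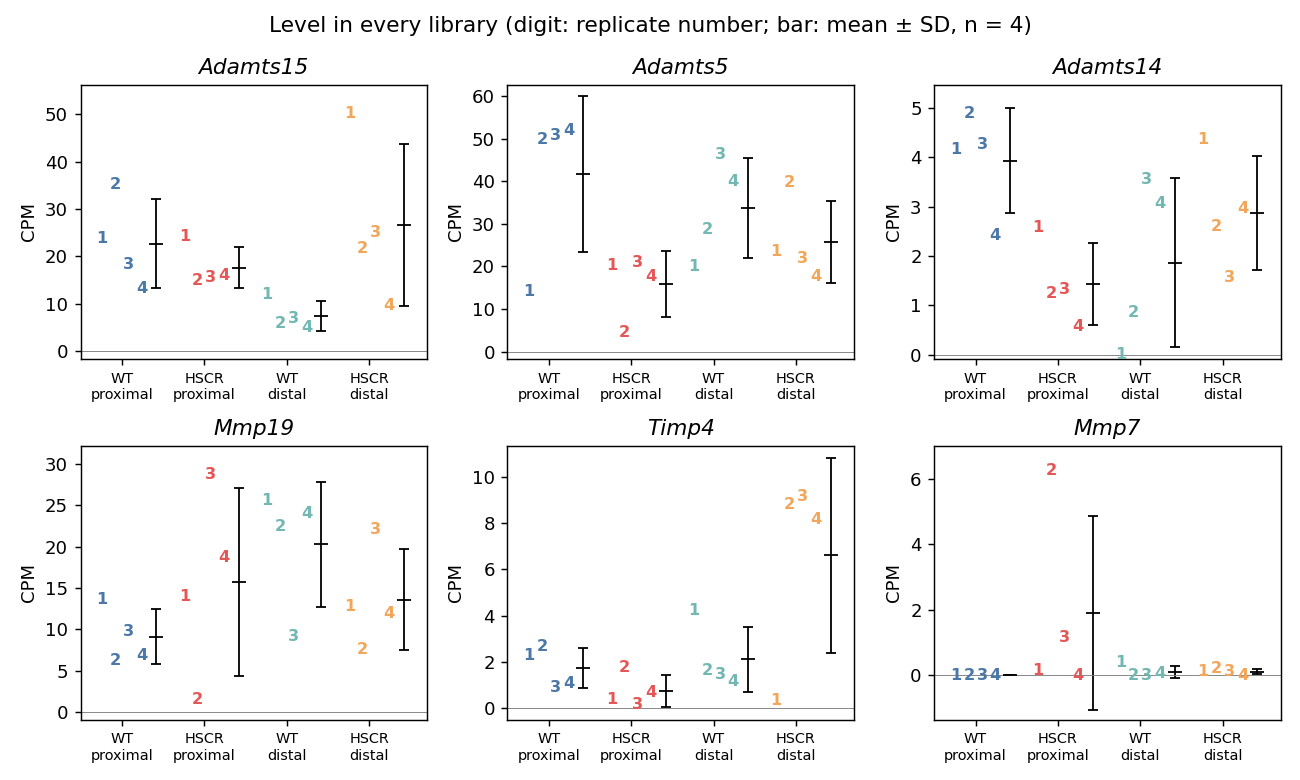
CPM of 6 members in every library, each digit a replicate number, with the mean ± SD of 4 libraries beside each group. Adamts15 shows WT distal libraries at 4.87 to 12.04 CPM below WT proximal at 13.3 to 35.1, and the Mmp7 mean in HSCR proximal colon rests on replicate 2 at 6.26 CPM.

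Adamts5, a main aggrecanase, had the smallest p of the members in the proximal comparison (ENSMUSG00000022894, mm39 chr16:85653061-85698716, minus strand). Adamts5 held 14.2, 49.8, 50.9 and 51.9 CPM in WT proximal libraries 1 to 4, 20.3, 4.39, 20.9 and 17.8 in HSCR proximal, 19.9, 28.6, 46.4 and 39.99 in WT distal and 23.5, 39.7, 21.9 and 17.7 in HSCR distal. In the proximal colon 3 WT libraries lay between 49.8 and 51.9 CPM and every HSCR library at or below 20.9, while WT proximal 1, at 14.2 CPM, lay among the HSCR libraries. Means of Adamts5 were 41.7 ± 18.4, 15.9 ± 7.76, 33.7 ± 11.8 and 25.7 ± 9.67 CPM in the same order (SD, n = 4 libraries). The log2 fold change was -1.41 (SE 0.55, adjusted p = 0.747), with -1.49 within replicates 1 and 2, -1.41 within replicates 3 and 4, and -1.11 without HSCR proximal 1 and 2. It was -0.37 ± 0.37 in the distal colon, and the difference between segments was 1.04 ± 0.66 (SE). RUVr called Adamts5 in the proximal colon. The epithelial list reached 1787 CPM in WT proximal 1 and was 48.7 to 104 CPM in the other WT proximal libraries. WT proximal 1 also had the lowest total of all libraries, 21384372 counts, with 49.8% of them on mitochondrial genes, the highest share. The part of these in the low Adamts5 value there was not tested.

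No other proteoglycan-cleaving member had an unadjusted p under 0.05 in any comparison. Adamts1, an early-response protease, and Adamts8 were the most abundant ADAMTS genes. Adamts1 held 26.3, 46.99, 92.97 and 47.7 CPM in WT proximal libraries 1 to 4, 66.1, 4.63, 96.7 and 64.9 in HSCR proximal, 21.99, 24.1, 47.3 and 184 in WT distal and 31.6, 17.6, 73.9 and 159 in HSCR distal. WT distal 4 and HSCR distal 4 were the highest libraries and HSCR proximal 2 the lowest. Adamts8 held 24.5, 44.2, 56.1 and 46.5 CPM in WT proximal libraries 1 to 4, 121, 3.53, 36.8 and 84.4 in HSCR proximal, 20.6, 22.2, 62.6 and 76.04 in WT distal and 65.3, 13.4, 60.6 and 52.8 in HSCR distal. HSCR proximal 1 was highest at 121 CPM, and the groups overlapped throughout. Genotype differences were 0.10 ± 0.72 and 0.05 ± 0.82 for Adamts1, and 0.51 ± 0.79 and 0.09 ± 0.56 for Adamts8 in proximal and then distal colon (log2 fold change and SE). Adamts4, Adamts9 and Adamts20 stood at 0.88 ± 0.75, 0.64 ± 0.64 and -1.003 ± 1.16 in the proximal colon. Of the 7 members of this role, 4 were higher and 3 lower in HSCR in each segment, with medians of 0.10 and 0.05.

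Adamts14, which removes the amino-terminal propeptide of procollagen, was the other member with an unadjusted p under 0.05 in the proximal colon (ENSMUSG00000059901, mm39 chr10:61032891-61109217, minus strand). Adamts14 held 4.16, 4.88, 4.27 and 2.42 CPM in WT proximal libraries 1 to 4, 2.57, 1.24, 1.32 and 0.565 in HSCR proximal, 0, 0.842, 3.55 and 3.06 in WT distal and 4.36, 2.59, 1.55 and 2.97 in HSCR distal. WT proximal 4, at 2.42 CPM, lay below HSCR proximal 1, at 2.57, and otherwise the groups were apart. Means of Adamts14 were 3.93 ± 1.06, 1.43 ± 0.837, 1.86 ± 1.71 and 2.87 ± 1.16 CPM in the same order (SD, n = 4 libraries). The log2 fold change was -1.48 (SE 0.60, adjusted p = 0.747) in the proximal colon and 0.66 ± 1.16 in the distal colon, where WT distal 1 had no count. The proximal difference was -1.32 within replicates 1 and 2 and -1.87 within replicates 3 and 4. Without HSCR proximal 1 and 2 the proximal value was -2.08 (adjusted p = 0.999 in edgeR). Adamts2, the main procollagen N-proteinase, and Adamts3 stood at 0.44 ± 0.69 and 0.07 ± 0.55 in the proximal colon. The COMP-cleaving proteases Adamts7 and Adamts12 were at 0.20 ± 0.52 and 0.85 ± 0.60 there, and at 0.22 ± 0.77 and -0.10 ± 0.36 in the distal colon.

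Among the remaining ADAMTS genes Adamts18 had the highest fitted genotype difference of the members in both segments, with a wide error. Adamts18 held 1.51, 0, 0.397 and 0 CPM in WT proximal libraries 1 to 4, 1.47, 1.62, 3.14 and 1.87 in HSCR proximal, 0.612, 0, 0.0413 and 0.301 in WT distal and 5.17, 0, 0.0565 and 2.56 in HSCR distal. In the proximal colon WT proximal 1 overlapped the HSCR libraries, and the log2 fold change was 2.09 ± 1.42. In the distal colon it was 3.05 ± 1.86 and rested on HSCR distal 1 and 4, since it was -2.96 without the 4 libraries that stood apart. Adamts19 held 20.2, 20.1, 15.7 and 13.6 CPM in WT proximal libraries 1 to 4, 27.2, 1.66, 82.4 and 40.9 in HSCR proximal, 3.12, 4.86, 21.9 and 24.3 in WT distal and 41.03, 2.01, 19.1 and 103 in HSCR distal. The same libraries held the highest distal values of Adamts19, whose log2 fold change of 1.64 ± 1.04 became -0.43 without them.

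Adamts6 held 0.574, 5.65, 1.39 and 0.173 CPM in WT proximal libraries 1 to 4, 13.4, 0.691, 9.71 and 1.73 in HSCR proximal, 8.57, 6.74, 4.26 and 7.501 in WT distal and 2.09, 4.49, 17.4 and 3.72 in HSCR distal. WT proximal 1, 3 and 4 were at or below 1.39 CPM, every WT distal library was at or above 4.26, and WT proximal 2, at 5.65, lay among the distal values. Adamts6 had a WT segment difference of 1.82 ± 0.92. Adamts10 held 10.4, 75.7, 11.5 and 11.7 CPM in WT proximal libraries 1 to 4, 20.9, 5.74, 24.05 and 9.92 in HSCR proximal, 8.95, 11.5, 38.001 and 54.5 in WT distal and 18.9, 15.2, 38.8 and 56.4 in HSCR distal. WT proximal 2 was far above the other WT proximal libraries of Adamts10, a protease linked to fibrillin microfibrils. Adamts17 held 19.9, 12.2, 33.4 and 20.4 CPM in WT proximal libraries 1 to 4, 86.6, 2.87, 20.2 and 21.9 in HSCR proximal, 10.98, 14.8, 28.7 and 23.3 in WT distal and 21.5, 6.93, 18.5 and 12.3 in HSCR distal. HSCR proximal 1 was highest for Adamts17. Their differences between HSCR segments were 1.07 ± 0.55 and -1.18 ± 0.83, and that of Adamts17 was -0.056 without HSCR proximal 1. Adamts13, which cuts von Willebrand factor, and Adamts16 held 99 and 204 counts over all libraries and were too low to test between groups of 8 libraries.

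Mmp14, the most abundant matrix metalloproteinase per kb, is the membrane-anchored collagenase that activates pro-Mmp2 together with Timp2. Mmp14 held 146, 484, 159 and 221 CPM in WT proximal libraries 1 to 4, 306, 108, 364 and 336 in HSCR proximal, 108, 98.4, 209 and 283 in WT distal and 373, 145, 273 and 424 in HSCR distal. The distal HSCR libraries ranged from 145 to 424 CPM and the distal WT libraries from 98.4 to 283 CPM, so that they overlapped. Means of Mmp14 were 253 ± 158, 279 ± 116, 175 ± 87.9 and 304 ± 123 CPM in the same order (SD, n = 4 libraries). The difference was 0.82 (SE 0.44, adjusted p = 0.9998) in the distal colon and 0.12 ± 0.49 in the proximal colon. Without the 4 libraries that stood apart the distal value was 0.22.

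Mmp2 held 99.6, 45.3, 56.5 and 26.5 CPM in WT proximal libraries 1 to 4, 123, 25.6, 186 and 89.5 in HSCR proximal, 59.2, 74.9, 88.7 and 139 in WT distal and 109, 32.4, 61.5 and 184 in HSCR distal. Mmp2, the constitutive gelatinase of stromal cells, was highest in HSCR proximal 3 and HSCR distal 4, and a lncRNA on the other strand shares 24.3% of its exon bases. Means of Mmp2 were 57.01 ± 31.003, 106 ± 66.7, 90.4 ± 34.5 and 96.6 ± 65.97 CPM in the same order (SD, n = 4 libraries). Its log2 fold change was 0.86 ± 0.58 in proximal and 0.11 ± 0.50 in distal colon, while the other gelatinase, Mmp9, stood at -0.31 ± 0.80 and -1.05 ± 0.84. Fibroblast markers summed to 3315 to 4077 CPM in WT proximal and 1139 to 8623 CPM in HSCR proximal libraries, with no marker at 0 throughout a group, and their part in the Mmp2 values was not tested.

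Mmp17 held 81.2, 59.8, 216 and 186 CPM in WT proximal libraries 1 to 4, 224, 7.33, 253 and 330.0 in HSCR proximal, 27.2, 31.6, 186 and 179 in WT distal and 228, 30.4, 145 and 218 in HSCR distal. For Mmp17, which is anchored by glycosylphosphatidylinositol, replicates 1 and 2 lay below replicates 3 and 4 in both WT groups, and replicate 2 was the lowest in proximal HSCR colon. Mmp15 held 55.1, 64.3, 113 and 85.97 CPM in WT proximal libraries 1 to 4, 64.2, 109.9, 77.4 and 46.7 in HSCR proximal, 12.4, 23.9, 76.7 and 62.5 in WT distal and 99.6, 31.3, 71.995 and 9.499 in HSCR distal. The lowest values of Mmp15 were those of HSCR distal 4 and WT distal 1. Mmp16 held 5.67, 4.40, 9.75 and 5.57 CPM in WT proximal libraries 1 to 4, 18.3, 1.38, 14.8 and 13.1 in HSCR proximal, 8.53, 11.8, 6.72 and 14.98 in WT distal and 10.9, 5.65, 7.74 and 12.5 in HSCR distal. Mmp16 was low in HSCR proximal 2, and the other HSCR proximal libraries held at least 13.1 CPM. WT segment differences were -0.39 ± 0.67, -0.88 ± 0.50 and 0.73 ± 0.41 for Mmp17, Mmp15 and Mmp16, and RUVr called that of Mmp15. Mmp24, made mainly by neurons, held 0 to 14.5 CPM, with genotype differences of -2.06 ± 1.48 and -1.64 ± 1.85. Mmp25, of leukocytes, held 114 counts over all libraries and was tested only in the fit of 16.

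Mmp19, which cuts basement membrane proteins, had the smallest p between WT segments of the matrix metalloproteinases tested in edgeR (ENSMUSG00000025355, mm39 chr10:128626779-128636693, plus strand). Mmp19 held 13.6, 6.20, 9.77 and 6.87 CPM in WT proximal libraries 1 to 4, 13.9, 1.45, 28.8 and 18.7 in HSCR proximal, 25.5, 22.5, 9.11 and 24.01 in WT distal and 12.7, 7.55, 22.1 and 11.9 in HSCR distal. WT distal 1, 2 and 4 lay between 22.5 and 25.5 CPM, above all WT proximal libraries, and WT distal 3, at 9.11 CPM, lay among them. Means of Mmp19 were 9.12 ± 3.38, 15.7 ± 11.3, 20.3 ± 7.55 and 13.6 ± 6.11 CPM in the same order (SD, n = 4 libraries). The log2 fold change between WT segments was 1.16 (SE 0.43, adjusted p = 0.906), with 1.38 within replicates 1 and 2 and 0.85 within replicates 3 and 4, where library names differ with segment, and between HSCR segments -0.25 ± 0.72. Of its exon bases in GENCODE M39, 30.6% are shared with Tmem198b on the other strand, and the counting is not stated to use strand, so reads from the 2 genes cannot be told apart there. Tmem198b held 1.25 to 11.8 CPM in WT proximal and 6.05 to 17.0 CPM in WT distal libraries.

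Mmp23 held 27.2, 21.6, 36.4 and 31.1 CPM in WT proximal libraries 1 to 4, 42.6, 7.71, 38.3 and 76.8 in HSCR proximal, 21.9, 14.99, 40.6 and 28.8 in WT distal and 59.5, 16.96, 41.5 and 38.6 in HSCR distal. Mmp23 ranged from 21.6 to 36.4 CPM in WT proximal and from 7.71 to 76.8 CPM in HSCR proximal libraries, so that one range held the other. Mmp28 held 4.52, 0.954, 6.20 and 3.499 CPM in WT proximal libraries 1 to 4, 3.30, 6.33, 3.58 and 3.95 in HSCR proximal, 0.708, 2.41, 5.81 and 7.48 in WT distal and 3.52, 1.604, 2.82 and 3.24 in HSCR distal. Mmp28, or epilysin, lay between 0.708 and 7.48 CPM in all libraries. Genotype differences were 0.49 ± 0.56 and 0.56 ± 0.43 for Mmp23, and the HSCR segment difference of Mmp28 was -0.64 ± 0.46. Mmp11, a stromelysin of fibroblasts, stood at 0.68 ± 0.57 in proximal and 0.88 ± 0.78 in distal colon. Mmp3, the stromelysin of the chromosome 9 cluster, was at -1.49 ± 1.47 and -0.63 ± 0.79.

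Mmp7, or matrilysin, is an epithelial protease that in the mouse processes defensins and cuts a broad range of matrix proteins (ENSMUSG00000018623, mm39 chr9:7692091-7699586, plus strand). Mmp7 held 0, 0, 0 and 0 counts in WT proximal libraries 1 to 4, 6, 181, 61 and 0 in HSCR proximal, 12, 0, 0 and 2 in WT distal and 4, 6, 4 and 0 in HSCR distal. No WT proximal library held a count, 3 HSCR proximal libraries held between 6 and 181, and HSCR proximal 4 held 0, so that the groups overlapped. HSCR proximal 2 alone held 181 of the 276 counts of the gene in all libraries, and HSCR proximal 3 a further 61. Set against the floor of 3 counts in each WT library, the HSCR proximal mean of 1.89 ± 2.96 CPM (SD, n = 4) was at least 14.3-fold higher, and at least 3.29-fold higher without HSCR proximal 2. Too few counts kept it out of the edgeR test, and the exact permutation test on log2 CPM (two-sided, 4 libraries against 4, smallest possible p 0.0286) gave p = 0.143. The 10 epithelial markers summed to 520.4, 13654, 2524 and 187 CPM in HSCR proximal libraries 1 to 4 and to 1787, 104, 48.7 and 60.1 CPM in WT proximal, and the HSCR proximal libraries had the same order in Mmp7 CPM and in the epithelial sum. Its part in the Mmp7 values was not tested, and WT proximal 1 had 1787 CPM of epithelial markers with no Mmp7 count. A lncRNA on the other strand shares 10.1% of its exon bases.

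Mmp12, the metalloelastase of macrophages, showed a like spread of low counts. Mmp12 held 0, 0, 0 and 0 counts in WT proximal libraries 1 to 4, 0, 46, 36 and 6 in HSCR proximal, 52, 35, 10 and 2 in WT distal and 4, 16, 4 and 0 in HSCR distal. WT proximal libraries held none, and the 4 WT distal libraries held between 2 and 52. The exact permutation test gave p = 0.0286 between WT segments, the smallest possible and not adjusted for the number of members. But the 2 counts of WT distal 4 are under the floor of 3 counts and cannot be told from 0. The same permutation test gave p = 0.143 and 0.286 between genotypes in proximal and distal colon, and 0.486 between HSCR segments. In the fit of 16 libraries the difference between segments had an adjusted p of 0.99997 (edgeR), and its size is not given because WT proximal is at 0. Macrophage markers summed to 73.6 to 251 CPM in WT proximal and 68.9 to 371 CPM in WT distal libraries with none at 0, and their part was not tested. Mmp13 held 22, 0, 4 and 0 counts in WT proximal libraries 1 to 4, 4, 90, 18 and 6 in HSCR proximal, 45, 20, 10 and 0 in WT distal and 6, 0, 6 and 0 in HSCR distal. Mmp13, a collagenase, had its highest count in HSCR proximal 2. The collagenase of neutrophils, Mmp8, held 28 of its 40 counts there, and Mmp10, Mmp20, Mmp21 and Mmp27 held 77, 9, 5 and 28 counts over all libraries.

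Among the inhibitors Timp2, the TIMP that also takes part in activating Mmp2, and Timp3, which is bound to the matrix, were abundant in every group. Timp2 held 363, 387, 744 and 572 CPM in WT proximal libraries 1 to 4, 746, 77.98, 653 and 744 in HSCR proximal, 243, 284, 601 and 789.8 in WT distal and 618, 248, 498 and 860.2 in HSCR distal. HSCR proximal 2, at 77.98 CPM, lay far below every other library, while the other HSCR proximal libraries held 653 to 746 CPM and the WT proximal libraries 363 to 744 CPM. Timp3 held 145, 47.99, 216 and 154 CPM in WT proximal libraries 1 to 4, 289, 8.57, 139 and 191 in HSCR proximal, 94.8, 95.3, 228 and 406 in WT distal and 89.2, 53.7, 213 and 417 in HSCR distal. HSCR proximal 2 was again the lowest. Genotype differences of Timp2 were 0.09 ± 0.61 and 0.23 ± 0.48, and those of Timp3 0.14 ± 0.82 and -0.08 ± 0.68, in the proximal and distal colon. Timp1 held 4.45, 9.32, 2.80 and 4.02 CPM in WT proximal libraries 1 to 4, 10.3, 3.94, 12.8 and 10.98 in HSCR proximal, 23.2, 1.29, 4.81 and 2.86 in WT distal and 14.3, 5.14, 11.9 and 3.04 in HSCR distal. Timp1, the inducible inhibitor that accompanies tissue injury, was above 10 CPM in 3 of 4 HSCR proximal libraries and between 2.80 and 9.32 CPM in the WT proximal libraries. Means of Timp1 were 5.15 ± 2.87, 9.49 ± 3.85, 8.05 ± 10.2 and 8.59 ± 5.37 CPM in the same order (SD, n = 4 libraries). Its proximal difference was 0.86 (SE 0.52, adjusted p = 0.774), with -0.02 within replicates 1 and 2 and 1.81 within replicates 3 and 4. In the distal colon it was 0.06 ± 0.90, and the highest value there, 23.2 CPM, came from WT distal 1.

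Timp4, an inhibitor of restricted expression, had the largest fitted difference of the inhibitors between HSCR segments (ENSMUSG00000030317, mm39 chr6:115218853-115229166, minus strand). Timp4 held 2.30, 2.68, 0.918 and 1.08 CPM in WT proximal libraries 1 to 4, 0.400, 1.76, 0.170 and 0.671 in HSCR proximal, 4.22, 1.63, 1.45 and 1.15 in WT distal and 0.335, 8.79, 9.15 and 8.15 in HSCR distal. HSCR distal libraries 2 to 4 lay between 8.15 and 9.15 CPM, above all other libraries, and HSCR distal 1, at 0.335 CPM, lay among the HSCR proximal libraries. Means of Timp4 were 1.74 ± 0.876, 0.751 ± 0.705, 2.11 ± 1.42 and 6.61 ± 4.20 CPM in the same order (SD, n = 4 libraries). The log2 fold change from proximal to distal HSCR colon was 3.10 (SE 1.05, adjusted p = 0.9998), with 1.03 within replicates 1 and 2 and 4.603 within replicates 3 and 4. In the distal colon the difference of HSCR against WT was 1.61 (SE 0.89, adjusted p = 0.9998), with -0.59 within replicates 1 and 2 and 2.73 within replicates 3 and 4, so that its direction did not hold in both pairs. The difference between segments was 2.81 (SE 1.26, adjusted p = 0.99997). Without HSCR proximal 1 and HSCR distal 1 the HSCR segment difference was 3.29 (adjusted p = 0.9196 in edgeR), and without all 4 that stood apart, HSCR distal 4 among them, it was 4.35 (adjusted p = 0.305). RUVr called the HSCR segment difference.

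All TIMP genes but Timp2 lie inside synapsin genes, which bears on how their reads were counted. In mm39 Timp1 lies within Syn1, Timp3 within Syn3 and Timp4 within Syn2, each on the other strand from its host, a gene of synaptic vesicles. In GENCODE M39 the exons of Timp4 share 14.7% of their bases with those of Syn2 and the exons of Timp3 21.3% with those of Syn3, while Timp1 shares none with Syn1. Syn2 held 31.2 to 124.7 CPM in WT proximal, 6.01 to 47.4 in HSCR proximal, 11.6 to 91.4 in WT distal and 3.97 to 27.5 CPM in HSCR distal libraries. The 3 HSCR distal libraries with 8.15 CPM or more of Timp4 held 8.64, 4.55 and 3.97 CPM of Syn2, which were among the 5 lowest values of that gene. Adipocyte markers summed to 56.7, 5.45 and 154 CPM in those libraries and 0.112 CPM in HSCR distal 1, against 1.55 to 43.7 CPM in HSCR proximal libraries, where Lep was at 0 throughout. They summed to 11.9 to 212 CPM in WT proximal and 1.93 to 20.8 CPM in WT distal libraries. The highest sum, 212 CPM, was that of WT proximal 1, which held 2.30 CPM of Timp4. The part of adipocyte markers in the Timp4 values was not tested. In all, 15 of the 46 members share exon bases with another gene.

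Other genes of matrix turnover were followed in 8 lists, in which edgeR called 0 genes in any comparison. In the proximal colon 4 of 6 tested genes of the plasminogen system were higher in HSCR (median 0.26), 4 of 5 of tolloid procollagen processing (0.11), 4 of 7 ADAMTS-like proteins (0.08), 4 of 8 ADAM sheddases (0.06), 6 of 7 cysteine cathepsins with cystatin C (0.32), 1 of 7 other inhibitors (-1.40), both meprins (3.21) and 1 of 4 proteoglycan substrates and link proteins (-1.22), against 0.04 over all genes. Unadjusted p under 0.05 in edgeR was reached there by Plgrkt, Pcolce2, Cst3, Ctss, Spock3 and Bcan, where 6.62% of all genes tested reached it. Spock3, a testican made by neurons, had means of 39.3 CPM in WT and 5.54 CPM in HSCR (log2 fold change -2.83, SE 0.75, adjusted p = 0.649 in edgeR), and Bcan, the neural proteoglycan brevican, 11.9 and 1.84 CPM (-2.70, SE 0.86). Meprins are proteases of the gut epithelium. The neuronal list had 9 of 10 genes lower and the epithelial list 10 of 10 higher in HSCR proximal colon, with medians of -1.88 and 2.90, and their part in these values was not tested. In the distal colon all 6 plasminogen genes were higher (0.51) and 3 of 4 proteoglycan genes lower (-1.95). Plgrkt and Hapln1 had an unadjusted p under 0.05 there, where 2.64% of all genes tested did.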

How the data were processed

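LMMP was profiled by poly-A RNA sequencing in 16 libraries, 4 per group, which the labels place in 1 batch. The authors deposited counts, whole numbers of reads per gene with no normalization. The submitters' processing notes name HISAT2 2.2.1, featureCounts 2.0.6, edgeR and mm39. The gene annotation release and the strand setting of the counting are not given in the sources used here. FPKM values (16 columns) and the columns of the authors' own comparisons (log2 fold changes and p-values) were not used. Totals of 21384372 to 45831881 counts bound the precision of low genes.

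Groups came from the sample labels. The members and gene lists were chosen with earlier results of these data known. Genes were filtered with filterByExpr by group and fitted with edgeR's quasi-likelihood test (edgeR 4.0.16, R 4.3.3, TMM scaling) over all genes passing, for HSCR against WT in each segment, distal against proximal in each genotype (8 libraries each), and the difference between segments (16 libraries). P-values were adjusted by Benjamini-Hochberg over all genes tested, and a call needed an absolute log2 fold change over 1 and an adjusted p under 0.05. Fold changes in the text are on the log2 scale, with SE after the ± sign where no SD is named. Members the filter removed were compared by two-sided exact permutation tests on log2 CPM with 0.5 counts added. Levels between genes were compared only per kb of gene model. By the rule for named genes, values in every library are given for Mmp7, Adamts5, Adamts15, the 4 Timp genes, the 5 tested members with the smallest p in each comparison of groups (3 for the difference between segments) and the 10 members highest per kb. Members were placed in roles by gene family and known substrates.

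Alternatives were DESeq2 1.42.0, limma-voom (limma 3.58.1) with quality weights, edgeR's likelihood ratio test, RUVr with 4 factors built from edgeR deviance residuals, other scalings and filters, a fit of all 16 libraries, a term for replicates 1 and 2 against 3 and 4, a replicate block, and leaving out libraries. Tables used scipy 1.17.1, numpy 2.4.6 and pandas 2.3.3 under Python 3.11.15, and figures matplotlib 3.10.9. The fitting steps were tested on simulated data. Gene coordinates and lengths are mm39 as given in the count table, and promoters are RefSeq's. Shared exon bases are from GENCODE M39, which can differ from the annotation used for counting. Timp4, for example, has 7743 exon bases there and a length of 5894 bases in the count table.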

Additional observations from a re-analysis of the deposited data

Results flagged for a closer look

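Values of 24 members in the 4 groups gave 96 sets of 4 libraries, and in 10 of them (10.4%) 1 library lay so far from the nearest of the others, relative to the range of its group, that it exceeded Dixon's critical value. Chance flags about 1 in 20 groups where values are normal and groups independent. The values here are unlogged CPM of genes named partly by small p and measured in the same libraries. That rate therefore cannot be set against the 10.4%.

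WT distal 1 was such a library for 3 genes. Mmp7 held 0.386 CPM there, Timp1 23.2 CPM against 1.29 to 4.81 in the other WT distal libraries, and Timp4 4.22 CPM against 1.15 to 1.63. Adamts1 held 184 CPM in WT distal 4, with 21.99 to 47.3 in the others of its group. In WT proximal colon Adamts5 held 14.2 CPM in library 1 against 49.8 to 51.9 in the others, and Adamts10 held 75.7 CPM in library 2 against 10.4 to 11.7.

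In HSCR proximal colon Adamts15 held 24.1 CPM in library 1, with 14.9 to 15.99 in the others, and Timp2 held 77.98 CPM in library 2, with 653 to 746 in the others. In HSCR distal colon Timp4 held 0.335 CPM in library 1 against 8.15 to 9.15, and Adamts6 held 17.4 CPM in library 3 against 2.09 to 4.49.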

How the results depend on the processing

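Limits of these results are 4 libraries per group, a median SE of 0.54 to 0.70 in comparisons of 8 libraries, and 4 HSCR libraries whose tissue or segment genes stood apart. DESeq2 called 1 member in the proximal comparison (Mmp7) and 0 in the others. RUVr with 4 factors called 6 members in the proximal and 3 in the distal comparison, 6 between WT segments, 1 between HSCR segments and 2 for the difference between segments. All other alternatives, including each left-out library, called 0. The cause of these differences was not tested. Of the fold changes followed for single members, 13 had an adjusted p under 0.05 under RUVr alone. They come from the same RUVr fits and include members called there. Adamts15 in the proximal colon turned to 0.066 with limma-voom, and Adamts18 in the distal colon to -1.42 with RUVr. Without the 4 HSCR libraries that stood apart (chosen after seeing the data), Adamts18 and Adamts19 in the distal colon turned to -2.96 and -0.43, and the median between HSCR segments was -0.80. Leaving out 1 library at a time gave medians of 0.02 to 0.55 in the proximal and -0.21 to 0.36 in the distal comparison, with Adamts15 at 1.30 (without HSCR distal 1) to 2.199 in the latter. Replicate numbers are shared between groups, but in no comparison did all 4 same-numbered pairs correlate above 0.1. The correlations of the pairs were -0.11 to 0.30 and -0.24 to 0.46 between genotypes in proximal and distal colon, and 0.09 to 0.45 and 0.01 to 0.41 between WT and HSCR segments, with 3 of 4 pairs above 0.1 in each of the last 2. The best-correlated partner had the same number for replicate 4 in the proximal and replicates 2 and 4 in the distal genotype comparison. It had the same number for replicates 1 and 2 between WT segments and replicates 2 and 4 between HSCR segments. The replicate numbers were not taken as pairs, but these values do not exclude pairing. In replicates 1 and 2 the library names also share a number across the 4 groups, and what it stands for is not given. With the replicate number as a block 0 members were called in each comparison, with a proximal median of 0.02. No other call changed under the block.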
